A study of Rattus norvegicus with 16 samples.

Results

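The star strands of 56 rat microRNA (miRNA) hairpins were described in kidney and blood plasma of rats given an iodinated contrast medium or saline. They were all miRNAs on the array whose name carries an asterisk, apart from 2 of the 58 such names that were not used here, and they made up 56 of the 350 miRNAs measured. The rule rested on names and used no measured value, but it was set with earlier results of these data known. Each had the other strand of its hairpin, the guide, on the same array, which gave 53 distinct guides because some guides belong to more than 1 hairpin.

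A miRNA hairpin is cut by Drosha and Dicer into a short duplex. One strand, the guide, is kept in an Argonaute protein and pairs with target mRNAs through its seed. The other strand, the passenger, was marked with an asterisk in the older miRNA nomenclature that this array uses, and most of it is degraded soon after the duplex opens. Some passenger strands are nevertheless loaded and stable, and which strand is kept can differ between cell types.

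All 24 animals were male Sprague-Dawley rats deprived of water for 3 days and injected with furosemide, a loop diuretic, at 10 mg/kg, so the control animals were also dehydrated. The 12 rats of the contrast-induced acute kidney injury (CI-AKI) group then received Omnipaque, a nonionic low-osmolar medium with 350 mg iodine per ml, at 10 ml/kg into the tail vein over 5 min. The 12 control rats received the same volume of saline, and blood and kidneys were taken 8 h later. RNA of 3 rats was combined in each pool, so that plasma control, plasma CI-AKI, kidney control and kidney CI-AKI had 4 pools and 4 arrays each.

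Groups were those of the sample titles. The samples also carried 8 letter codes, each used once per tissue, and 6 of the 8 had opposite treatments in plasma and in kidney. What the letters mean is not stated, so the comparisons of treatment hold only if the titles are right. Pool 4 of plasma differed from the other plasma pools in each group: its arrays detected 84 (control) and 95 (CI-AKI) of 350 miRNAs against 156 to 211 on the other 6 plasma arrays. Plasma results are therefore also given without that pool. The kidney arrays detected 169 to 216 miRNAs. The summed scaled signal of 5 kidney tubule miRNAs was 6134 to 7272 in kidney and 378 to 816 in plasma pools. Each tissue was scaled on its own here, so the size of that gap cannot be read from these sums. The liver miRNA miR-122 was detected on 0 of the 8 kidney arrays. Plasma lay on 1 slide and kidney on another, so tissue and slide cannot be told apart, and within each slide control and CI-AKI pools occupied different columns.

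The mature sequences that the results turn on are given from RefSeq (GRCr8), with the seed, bases 2 to 8, in capitals. The array gives no arm for a star strand, so 37 of the 56 were matched to a RefSeq mature miRNA through the arm known to be the guide or through a name that gives the locus. First come let-7d* and its guide, one of the pairs whose balance differed between tissues without overlap. Next are both star strands of miR-30c, which share a guide, and both of miR-24, which also share a guide but of which 1 was detected. The last are miR-140* and miR-30a*, seen on nearly all arrays, and the miR-204 pair, of which only the guide was detected in kidney.
let-7d*: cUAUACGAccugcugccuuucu
let-7d: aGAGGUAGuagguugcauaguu
miR-30c-1*: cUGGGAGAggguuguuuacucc
miR-30c-2*: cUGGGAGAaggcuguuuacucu
miR-30c: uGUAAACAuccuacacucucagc
miR-24-1*: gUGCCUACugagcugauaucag
miR-24-2*: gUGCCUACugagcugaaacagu
miR-24: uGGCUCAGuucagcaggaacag
miR-140*: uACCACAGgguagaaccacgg
miR-30a*: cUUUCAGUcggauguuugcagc
miR-204*: gCUGGGAAggcaaagggacguu
miR-204: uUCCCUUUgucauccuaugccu

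In GRCr8, let-7d* lies at chr17:16322327-16322348 on the plus strand. The star strands of miR-30c lie on chromosome 5 (139634467 to 139634488, minus strand, within Nfyc) and chromosome 9 (33253735 to 33253756, plus strand). Those of miR-24 lie on chromosome 17 (miR-24-1*, 1818710 to 1818731, minus strand, within Aopep) and chromosome 19 (miR-24-2*, 40859517 to 40859538, minus strand). MiR-140* lies within Wwp2 on chromosome 19 (52375353 to 52375373, plus strand), miR-30a* on chromosome 9 (33233987 to 33234008, plus strand), and miR-204* within Trpm3 on chromosome 1 (229743532 to 229743553, plus strand). Of the 37 matched star strands, 17 lay within the bounds of a protein-coding gene.

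The matched star strands differed from their guides in the first base. They began with U in 6 of 37 cases (16.2%) and with C in 16 (43.2%), while the 35 matched guides began with U in 20 (57.1%) and with C in 5 (14.3%). A 5′ U is a base that Argonaute proteins are known to favour. Among star strands detected on at least 8 arrays 3 of 15 began with U, and among those detected on fewer 3 of 22. The seeds of miR-24-1* and miR-24-2* are the same, and so are those of miR-30c-1* and miR-30c-2*. Of the 37 seeds, 7 occur in another rat miRNA of the table, such as that of let-7b*, which is shared with 5 others.

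Few star strands were detected throughout. By the detection call of the scanner software, 13 of 56 (23.2%) were seen on no array, 3 (5.36%) on all 16, 13 (23.2%) on all 8 kidney arrays and 3 on all 8 plasma arrays. Of the 294 other miRNAs 75 (25.5%) were seen on no array, 62 (21.1%) on all 16, 150 (51.0%) on all 8 kidney arrays and 71 (24.1%) on all 8 plasma arrays. Their 53 guides were on no array in 7 cases and on all 16 in 22.

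The star strands on all 16 arrays were let-7d*, from a let-7 hairpin, miR-140*, from a miRNA known for its role in cartilage, and miR-30e*, from the miR-30 family that is abundant in kidney epithelium. MiR-30a* was missed on 1 array and miR-151*, miR-24-2*, miR-29a*, miR-30c-2*, miR-322* and miR-378* were on all 8 kidney arrays and 3 of 4 pools of each plasma group. MiR-22*, miR-7a* and miR-29c* completed the 13 on every kidney array. Those never detected were let-7i*, miR-24-1*, miR-25*, miR-29b-1*, miR-135a*, miR-136*, miR-323*, miR-363*, miR-376a*, miR-379*, miR-382*, miR-543* and miR-708*. Several of these, among them miR-136*, miR-323*, miR-376a*, miR-379*, miR-382* and miR-543*, come from the imprinted Dlk1-Dio3 cluster.

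Of the 43 star strands with any detection, 28 were seen in both tissues, 6 in kidney alone and 9 in plasma alone; among other miRNAs these counts were 167, 23 and 29 of 294. In kidney alone were miR-129*, miR-20a*, miR-30d*, miR-29b-2*, miR-26b* and miR-338*. In plasma alone were miR-204*, miR-34c*, miR-1*, miR-138*, miR-124*, miR-196a*, miR-21*, miR-218* and miR-27a*. Most of these rested on few arrays, and the lowest signal that was called detected differed between arrays.

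**Figure D1:**
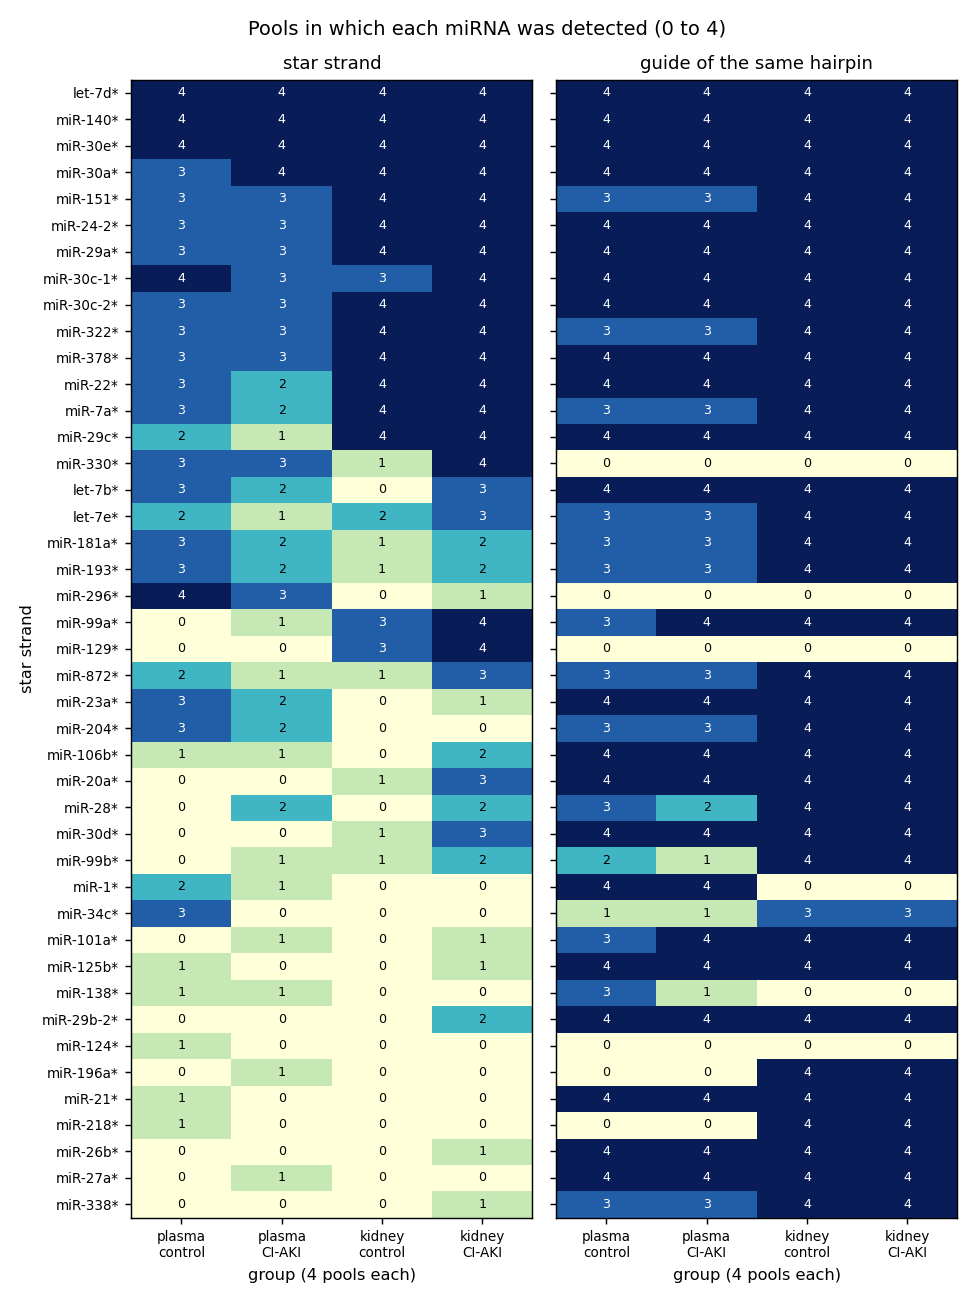
Pools out of 4 in which each of the 43 star strands with any detection was detected (left, rows) and in which the guide of its hairpin was (right), by group (columns); the colour runs from 0, pale, to 4, dark. The upper rows are dark in all 4 groups, lower rows hold star strands seen in 1 or 2 groups, and for miR-330*, miR-296*, miR-129* and miR-124* the guide column shows 0 in every group.

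Detection of a star strand did not always go with that of its guide. MiR-330* was detected in 3 of 4 pools of each plasma group, 1 kidney control pool and 4 kidney CI-AKI pools, and its guide on no array. MiR-129* was detected in 3 kidney control and 4 kidney CI-AKI pools, and miR-296* in 4 plasma control and 3 plasma CI-AKI pools, both with a guide on no array. MiR-204*, from an intronic miRNA of kidney tubule and retina, was detected in 3 plasma control, 2 plasma CI-AKI and 0 kidney pools, while miR-204 was detected in 3 pools of each plasma group and all 8 kidney pools. MiR-34c*, from a p53-induced hairpin, was detected in 3 plasma control pools and nowhere else, while its guide was detected in 3 kidney pools and 1 plasma pool of each condition. MiR-24-1* was never detected although miR-24-2* was on 14 arrays. Both derive from hairpins with the same guide, and the 2 sequences above agree over their first 16 bases and at 17 of 22 positions. The array design states no probe sequences here, so how far probes for such near copies are selective was not tested.

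The kidney comparison asked how star strands stood in the kidney itself, 8 h after the injection. More star strands were detected in CI-AKI than in control kidneys, but the pools overlapped. Control pools had 18, 22, 13 and 17 of 56 detected and CI-AKI pools 30, 32, 18 and 21. Pools 1 and 2 of the CI-AKI group were above all control pools, and pools 3 and 4 lay within the control range. The means were 17.5 ± 3.70 and 25.2 ± 6.80 (SD, n = 4), a difference of 7.75. The other miRNAs went from 163 ± 7.23 to 174 ± 14.2 of 294.

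By strand, 21 star strands were detected in more CI-AKI than control kidney pools, 0 in fewer and 35 in the same number; among other miRNAs these counts were 31, 4 and 259. A gain of at least 2 pools was seen for 8 star strands, 11 of the 294 other miRNAs and 1 of the 53 guides. A miRNA already on all 8 kidney arrays could gain no pool. That was the case for 13 of 56 star strands, 150 of 294 other miRNAs and 39 of 53 guides. The counts of gains are therefore not on an equal footing. Let-7b* went from 0 to 3 pools, miR-330* from 1 to 4, miR-20a*, miR-30d* and miR-872* from 1 to 3, and miR-106b*, miR-28* and miR-29b-2* from 0 to 2. A gain in pools called detected is not by itself a gain in signal. The mean scaled signal of miR-28* was lower in CI-AKI (1.32) than in control pools (1.56), while that of the others named here was higher. For miR-106b* the CI-AKI pools read 1.59, 1.11, 3.02 and 1.22 against a control mean of 1.30. The highest of these was pool 3, where it was not called detected. MiR-20a* belongs to the miR-17-92 cluster, known for its part in cell growth, and miR-106b* to the paralogous cluster within Mcm7.

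The difference between the groups was smaller by signal than by the detection call. Above 1 common scaled signal of 2.83, the highest detection limit among the kidney arrays, all 4 control pools had 19 star strands and the CI-AKI pools had 21, 23, 26 and 22, a difference of 4. At this level every CI-AKI pool was above every control pool, unlike by the detection call. The same count was not made for the other miRNAs, so it cannot be read as particular to star strands. The lowest detected scaled signal was 1.77 to 2.50 on control arrays and 1.11, 1.25, 1.32 and 2.83 on CI-AKI arrays. CI-AKI pool 3, with the lowest summed signal of the kidney arrays (46951 against 68651 to 96006), had the fewest detected star strands of its group and the most above the common level. Within the upper slide row, which held pools 1 and 2, the difference in detected star strands was 11, and in the lower row, with pools 3 and 4, it was 4.50. For the other miRNAs these differences were 18 and 3.50 of 294, so the larger gain in the upper row was not confined to star strands. The part of the detection limits in the difference was not tested beyond this.

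**Figure D2:**
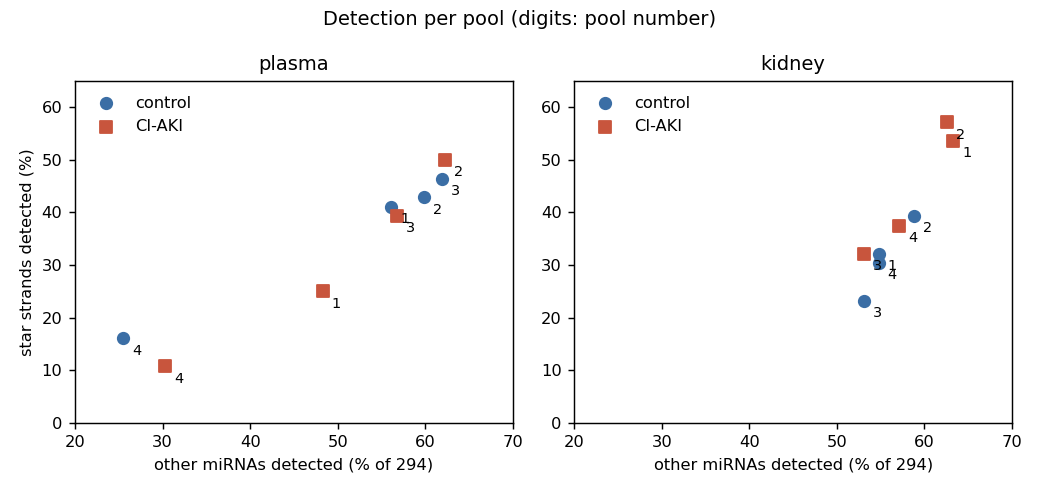
Percent of the 56 star strands (vertical) and of the 294 other miRNAs (horizontal) detected on each array, in plasma (left) and kidney (right); points are pools, labelled by number. Plasma pool 4 of both groups lies far to the lower left, and kidney CI-AKI pools 1 and 2 lie at the upper right with 53.6% and 57.1% of star strands detected, while CI-AKI pools 3 and 4 lie among the control pools.

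Signals were then compared for miRNAs seen in every pool of 1 or both kidney groups. They were scaled to each array's 75th percentile, and values below a floor of 1.79 were set to it before log2 was taken. Among 17 star strands tested, 0 passed an adjusted p of 0.05 in limma with Benjamini-Hochberg adjustment over all 176 tested miRNAs, of which 3 (1.7%) passed, all higher. Among the 17, 2 star strands had an unadjusted p under 0.05, against 11 (6.25%) of the 176. With every miRNA seen on at least 1 kidney array included, 0 of 34 star strands passed, against 2 (0.893%) of 224.

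MiR-24-2* had the smallest p. It comes from the cluster with miR-23a and miR-27a. Its scaled signal was 18.1, 20.9, 20.2 and 18.9 in control pools and 23.9, 25.2, 21.5 and 22.1 in CI-AKI pools. Every CI-AKI pool was above every control pool, which was the case for 1 of the 17 star strands and for 9 (5.11%) of all tested, all 9 of them higher. The log2 difference was 0.25 (SE 0.076, 95% interval 0.075 to 0.42), with an adjusted p of 0.253 in limma. Pools 1 and 2, in the upper slide row, gave 0.33, and pools 3 and 4, in the lower, gave 0.16. Its 3 probes with signal differed by 0.50, 0.21 and 0.24, and the fourth was at the floor on all arrays.

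The guide miR-24 was also above every control pool in every CI-AKI pool. It read 1013, 1132, 1117 and 1064 in control pools and 1323, 1200, 1238 and 1174 in CI-AKI pools, a log2 difference of 0.19 (SE 0.067, adjusted p = 0.415 in limma). The star strand minus its guide differed by 0.057 on the log2 scale between the groups, which overlapped.

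MiR-7a*, from a hairpin enriched in neuroendocrine cells, read 3.38, 4.70, 4.65 and 4.01 in control and 5.53, 4.68, 5.24 and 4.80 in CI-AKI pools. The groups overlapped, since CI-AKI pool 2 lay just under control pool 2. Its log2 difference was 0.28 (SE 0.11, adjusted p = 0.600 in limma) and -0.027 after quantile normalization. MiR-330* read 2.34, 2.55, 1.77 and 2.70 in control and 2.73, 3.13, 6.25 and 2.51 in CI-AKI pools. CI-AKI pool 3 stood above the rest, and the difference was 0.55 (SE 0.27, adjusted p = 0.898 in limma). The upper slide row gave 0.26, and the lower, with that pool, gave 0.85.

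MiR-322*, from the cluster with miR-503 on the X chromosome, read 17.0, 19.2, 17.1 and 16.5 in control and 22.0, 19.3, 19.1 and 18.0 in CI-AKI pools. Its highest pool was CI-AKI pool 1, and the groups overlapped. The difference was 0.17 (SE 0.082, adjusted p = 0.898 in limma), against -0.023 for miR-322. The star strands of miR-30c had differences of 0.33 (miR-30c-1*, SE 0.20) and 0.11 (miR-30c-2*, SE 0.068), both with an adjusted p of 0.917 in limma, and miR-30c itself of 0.13. MiR-30c-1* was dim, at 3.37, 2.56, 2.64 and 2.69 in control and 4.68, 4.40, 2.91 and 2.53 in CI-AKI pools. Pools 1 and 2 of the CI-AKI group were the high ones, and its difference was 0.63 in the upper slide row and 0.024 in the lower.

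The star strands seen on all 16 arrays showed small differences in kidney. MiR-140* read 185, 164, 172 and 172 in control and 205.7, 172, 198 and 176 in CI-AKI pools, a log2 difference of 0.11 (SE 0.079). MiR-30e* read 216, 225, 244 and 245 in control and 227, 242, 278 and 240 in CI-AKI pools, a difference of 0.084 (SE 0.081). Let-7d* read 15.1, 17.1, 13.9 and 16.5 in control and 14.7, 15.3, 15.6 and 14.8 in CI-AKI pools, a difference of -0.044 (SE 0.076). The groups overlapped for all 3, with an adjusted p of 0.917 in limma each. The 95% intervals of -0.066 to 0.29, -0.099 to 0.27 and -0.22 to 0.13 bound what these pools could hide.

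**Figure D3:**
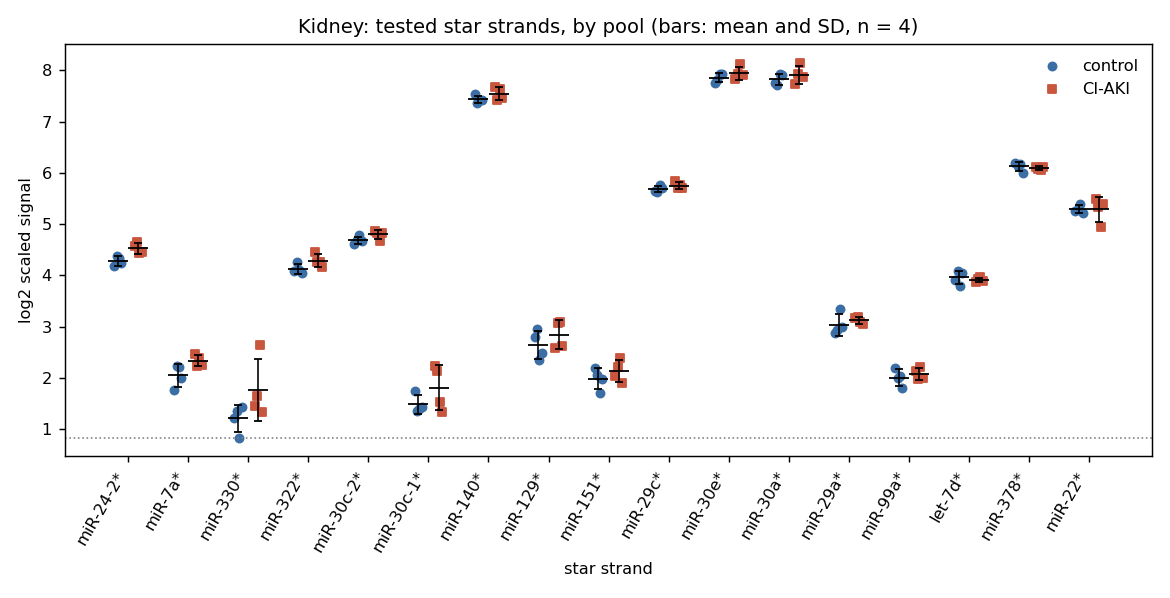
Log2 scaled signal of the 17 tested star strands in the 4 control (blue circles) and 4 CI-AKI (red squares) kidney pools, ordered by p from left; bars give the mean and SD, and the dotted line is the floor. The groups are apart only for miR-24-2*, at the left, and overlap for the other 16.

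Over the 17 tested star strands the mean was higher in CI-AKI kidneys for 14 and lower for 3 (let-7d*, miR-378* and miR-22*), with a median log2 difference of 0.11; after quantile normalization the counts were 9 and 8 and the median 0.0082. Over all 176 tested miRNAs 106 (60.2%) were higher and the median was 0.028. The guides of the tested star strands had 11 of 14 higher and a median of 0.041. A star strand that was tested only because it was detected in all CI-AKI pools, such as miR-330*, miR-30c-1*, miR-99a* and miR-129*, could enter only from the side where it was seen more often, so the 14 are not a measure of all 56.

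Markers of blood cells and of tubule overlapped between the kidney groups. The summed scaled signal of 3 erythroid miRNAs was 1683 to 1796 in control and 1716 to 1853 in CI-AKI pools, that of 4 leukocyte miRNAs 487 to 597 and 459 to 566, and that of 5 tubule miRNAs 6134 to 7232 and 6950 to 7272. All miRNAs of these lists were detected in every kidney pool. Their part in the star strand values was not tested. In pooled RNA of a whole organ, fewer cells of a type and less miRNA per cell cannot be told apart.

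Star and guide were next set beside each other within each kidney array, where scaling drops out. The signals of 2 probes have no common scale, so only the change of their difference between groups is read. Of 15 pairs with both strands detected in at least 3 pools of each group, 0 had a star minus guide difference that separated control from CI-AKI pools, as for 0 (0%) of 10 pairs of other hairpins whose strands carry 5p and 3p names. The median change over the 15 pairs was 0.054 on the log2 scale, from -0.10 (miR-22*) to 0.25 (miR-7a*). No test was run on these differences.

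The plasma comparison asked whether circulating star strands differed. Only 6 of the 56 were detected in all 4 pools of a plasma group, and 0 of them passed in limma, nor did any (0%) of the 96 tested miRNAs. At an unadjusted p under 0.05 there were 0 star strands, against 5 (5.21%) of all tested. The groups overlapped for all 6, while among all tested 2 (2.08%) were higher and 3 (3.12%) lower without overlap.

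Let-7d* read 102, 102, 90.1 and 58.1 in plasma control and 55.5, 82.3, 111 and 52.1 in CI-AKI pools. Pool 4 was low in both groups, and pool 1 in the CI-AKI group. The log2 difference was -0.26 (SE 0.32), and -0.040 without pool 4. MiR-30a* read 37.7, 25.1, 28.9 and 39.2 in control and 35.2, 25.5, 22.6 and 23.3 in CI-AKI pools, a difference of -0.29 (SE 0.26) that was 0.11 without pool 4.

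MiR-140* read 200.5, 326, 333 and 214 in control and 319, 227, 393 and 259 in CI-AKI plasma pools, with the lowest pool in the control and the highest in the CI-AKI group. Its log2 difference was 0.17 (SE 0.29), and 0.38 without pool 4. MiR-30e* read 40.7, 32.5, 32.8 and 41.6 in control and 42.0, 29.8, 29.6 and 38.5 in CI-AKI pools. Pools 1 and 4 were the high ones in both groups, and the difference was -0.085 (SE 0.24), or 0.18 without pool 4.

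MiR-296*, from the imprinted Gnas region, read 7.29, 5.21, 6.51 and 49.3 in control and 16.8, 7.77, 9.30 and 25.6 in CI-AKI pools. Pool 4 was the highest of each group, and of the other 6 pools the 3 CI-AKI pools were the higher ones. The log2 difference was 0.34 (SE 0.69), and 1.02 (SE 0.38, adjusted p = 0.234 in limma) without pool 4. MiR-30c-1* read 18.0, 8.38, 6.69 and 22.8 in control and 26.2, 10.0, 13.0 and 7.32 in CI-AKI pools, a difference of 0.033 (SE 0.50). Its 2 probes with signal on all arrays differed by -0.34 and 1.12, so no direction can be read. Adjusted p in limma was 0.941 to 0.959 for these 6 star strands.

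**Figure D4:**
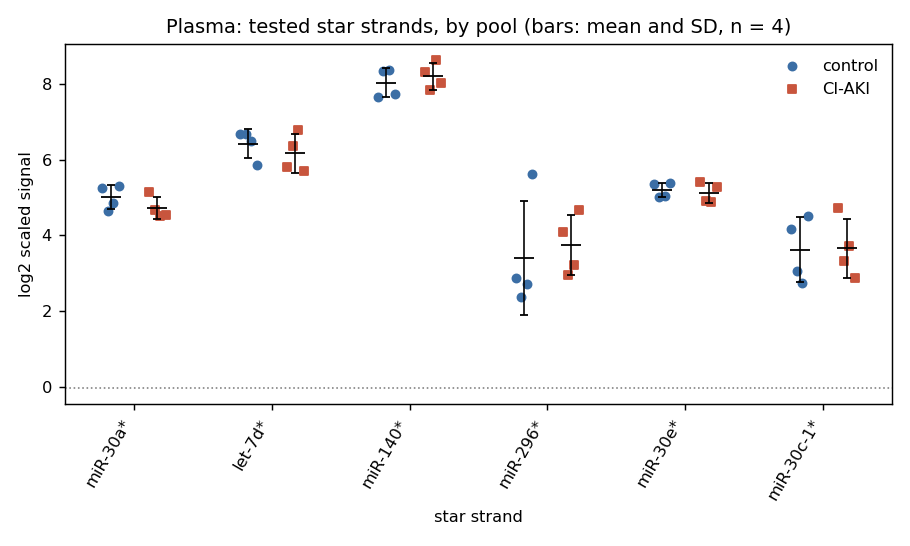
Log2 scaled signal of the 6 tested star strands in the 4 control (blue circles) and 4 CI-AKI (red squares) plasma pools; bars give the mean and SD, and the dotted line is the floor. The groups overlap for all 6, and control pool 4 of miR-296*, at a scaled signal of 49.3, stands far above the other 3 control pools.

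Without pool 4 of both groups, 20 star strands could be tested among 182 miRNAs, and 0 passed in limma, as did 0 (0%) of the 182. Their mean was higher in CI-AKI plasma for 17 and lower for 3, while 130 (71.4%) of all 182 were higher. The median log2 difference was 0.43 for the star strands and 0.26 for all 182. An unadjusted p under 0.05 was reached by 3 star strands, against 32 (17.6%) of all. These were miR-296*, miR-378*, at 0.85 (SE 0.34), and miR-24-2*, at 0.75 (SE 0.32). Direction in plasma followed the settings. Of the 6 star strands tested with all pools 3 were higher and 3 lower, all 6 were higher with normexp background correction, and 2 were higher with quantile normalization, in the authors' processed values, with the total signal per miRNA or with the percentile over all miRNAs. The share higher among all 96 tested moved too. It was 40.6% in the main setting, 71.9% with normexp and 28.1% to 49.0% in the other settings named.

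In detection, plasma control pools had 23, 24, 26 and 9 star strands and CI-AKI pools 14, 28, 22 and 6. Pool 4 was lowest in both groups, followed by CI-AKI pool 1. The means were 20.5 ± 7.77 and 17.5 ± 9.57 (SD, n = 4), and 24.3 and 21.3 without pool 4. Leaving out pool 4 of a single group moved the difference from -3 to 0.83 (CI-AKI pool) or to -6.83 (control pool). The other miRNAs were at 149.5 ± 50.2 and 145 ± 41.1 of 294, and at 174 and 164 without pool 4 of both groups. By strand 7 were detected in more CI-AKI pools, 18 in fewer and 31 in the same number; among other miRNAs these counts were 28, 36 and 230. The erythroid miRNAs summed to 3816 to 5619 in control and 2558 to 8291 in CI-AKI plasma pools and the leukocyte miRNAs to 2287 to 3019 and 1566 to 3488; their part in the plasma values was not tested.

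Of 11 star and guide pairs with both strands detected in at least 3 pools of each plasma group, 1 differed between groups without overlap. The signal of miR-24-2* minus that of miR-24 was -5.93, -5.54 and -5.54 on the log2 scale in control pools 1 to 3 and -4.66, -5.25 and -4.94 in CI-AKI pools 1 to 3, a difference of 0.72 between the means with n = 3 each. Among 8 pairs with 5p and 3p names, 1 (12.5%) was higher and 1 lower without overlap. Within pools of the same number, the star minus guide difference was higher in CI-AKI plasma in every pair of pools for miR-24-2*, miR-30c-1* and miR-30c-2* (3 of 3 each), and lower in every pair for miR-30e* (4 of 4) and miR-30a* (3 of 3). The mean changes of these 5 were 0.72, 0.72, 0.65, -0.40 and -0.67 on the log2 scale. The miR-30c-1* probes with signal on all plasma arrays differed between the groups in opposite directions, by -0.34 and 1.12. Both miR-30c star strands are also set against the same guide signal, so they are not separate cases. The remaining 6 star strands were mixed, and of the 8 pairs with 5p and 3p names 2 were higher and 2 lower in every pair of pools. No test was run on these differences. In kidney the same difference was 0.057, as given above. Whether the effect of contrast medium differed between tissues was tested for 5 star strands, of which 0 passed in limma, against 1 (1.15%) of 87 miRNAs, and 0 had an unadjusted p under 0.05, against 3 (3.45%).

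The balance of star and guide was then compared between tissues. In control pools, 13 pairs had both strands detected in at least 3 pools of each tissue. The star strand was lower relative to its guide in kidney than in plasma for 12, and for 7 of these the pools of the tissues did not overlap. None of the 13 was higher in kidney without overlap, but pairs seen in fewer than 3 pools of either tissue could not enter. One of those left out, miR-29c* minus miR-29c, was -6.36 and -6.22 in 2 plasma and -4.44 to -4.34 in 4 kidney control pools. For let-7e*, miR-181a*, miR-193* and miR-872*, also left out, kidney values lay below plasma values. The direction among the 13 therefore does not describe all pairs. Among 9 pairs of other hairpins with 5p and 3p names, the 5p minus 3p difference was higher in kidney without overlap for 4 (44.4%) and lower for 3 (33.3%), so differences between tissues were common there too. The 7 remained below 0 and without overlap with normexp background correction, with the total signal and in the authors' processed values. The rest of the 11 alternative settings each left out a single control pool. Leaving out a pool cannot make separate groups overlap, so those settings could not test the separation of the 7. The other 6 took values on both sides of 0 among the 11 settings.

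Let-7d* and miR-30c-1* showed the widest gaps. Let-7d* was ahead in 7 of 11 alternative settings and miR-30c-1* in 4, so their order is not settled. The signal of let-7d* minus that of let-7d was 0.27, 0.28, -0.050 and -0.67 on the log2 scale in plasma control pools and -6.34, -6.11, -6.54 and -6.22 in kidney control pools. Every kidney pool was below every plasma pool. The means differed by -6.26, with a range of -6.47 to -4.14 over the alternatives. On a scale common to both tissues let-7d* was at 186 ± 43.9 in plasma and 7.87 ± 0.915 in kidney control pools (SD, n = 4), a log2 difference of -4.54 (SE 0.20, adjusted p = 2.67e-07 in limma), and let-7d differed by 1.72 the other way. In the CI-AKI pools the star minus guide values were -0.84 to 0.65 in plasma and -6.31 to -6.12 in kidney.

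The star strands of miR-30c, which share a guide, differed from each other. For miR-30c-1* the values were -3.16, -4.79, -5.05 and -2.81 in plasma and -9.63, -10.4 and -10.2 in the 3 kidney control pools that detected it. For miR-30c-2* they were -3.50, -5.20 and -4.73 in plasma pools 1 to 3 and -6.77, -7.03, -6.98 and -6.98 in kidney. Every kidney pool was below every plasma pool for both, with differences of -6.12 and -2.46 between the means. The guide signal is the same for both, and the sequences share their seed and 19 of 22 positions.

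The other pairs without overlap had smaller gaps than let-7d* and miR-30c-1*. MiR-151* minus miR-151 was -2.63, -2.82 and -2.75 in 3 plasma and -5.95, -6.25, -6.75 and -6.37 in 4 kidney control pools. MiR-322* minus miR-322 was -0.23, -0.095 and 0.20 in plasma and -2.56, -2.44, -2.68 and -2.51 in kidney. MiR-7a* minus miR-7a was -0.19, -0.0012 and -0.82 in plasma and -2.51, -1.75, -1.97 and -2.13 in kidney. Pool 4 of plasma is missing from these 3, since a strand was not detected there. MiR-140* minus miR-140 was -0.49, 0.82, 0.98 and -0.057 in plasma and -0.69, -0.80, -0.86 and -0.89 in kidney, where the lowest plasma pool came close to the highest kidney pool. The means differed by -3.60 (miR-151*), -2.50 (miR-322*), -1.75 (miR-7a*) and -1.12 (miR-140*). With normexp background correction these shrank to -1.93, -1.04, -0.19 and -0.95, so the size of the miR-7a* gap in particular depended on the background correction.

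For 6 pairs the tissues overlapped. MiR-30e* minus miR-30e had a mean of -1.58 ± 0.882 in plasma and -1.61 ± 0.175 in kidney (SD, n = 4). MiR-24-2*, miR-30a*, miR-378*, miR-29a* and miR-22* differed by -0.12, -0.29, -0.29, -0.45 and 0.092. The spread between plasma pools, with SDs of 0.228 to 0.926 for these 5, exceeded that in kidney, with 0.0235 to 0.135.

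**Figure D5:**
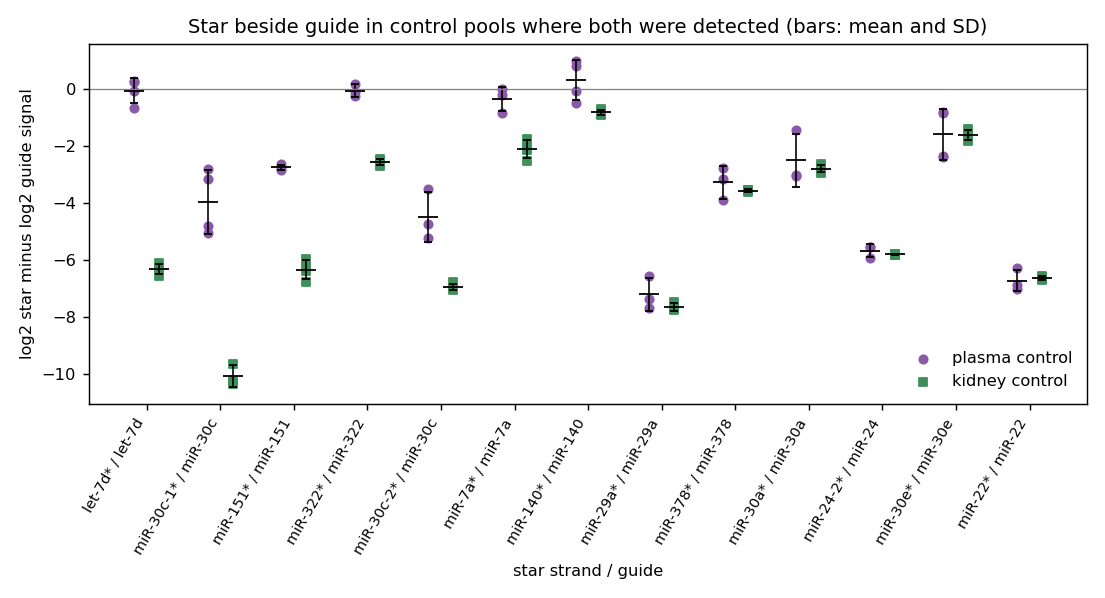
Log2 signal of each star strand minus that of its guide in plasma control (purple circles) and kidney control (green squares) pools where both were detected, with mean and SD as bars, ordered by the difference between tissues. Kidney pools lie below plasma pools without overlap for the 7 pairs on the left, from let-7d* to miR-140*, and overlap with them for the 6 on the right.

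Levels of single star strands between tissues depended on the scaling. In limma 14 of 15 star strands tested between control kidney and plasma passed, 4 higher (background 33.1%) and 10 lower (43.8%) in kidney, and 137 of all 178 (77%) passed. The pools of the tissues did not overlap for these 14, against 33.7% higher and 45.5% lower without overlap among all tested. The median log2 difference over all 178 was -0.39 and ranged from -1.27 with normexp background correction to 1.35 without scaling. Only 3 of the 15 star strands (let-7d*, miR-140* and miR-30e*) were detected on all control arrays of both tissues; 10 entered through kidney alone and 2 (miR-30c-1* and miR-296*) through plasma alone, so the levels on the other side rest partly on signals not called detected. Lowest were let-7d*, miR-30c-1* at -4.14 (SE 0.39, adjusted p = 1.97e-05 in limma) and miR-296*, detected in 4 plasma control pools and 0 kidney control pools. MiR-30c-1* read 1.66, 1.29, 1.29 and 1.41 in kidney control pools, and all but the first were set to the floor of 1.42. Its difference and kidney spread are therefore understated. The plasma level of miR-296* was at least 11.7-fold higher (log2 difference -3.54, adjusted p = 0.00143 in limma), and at least 6.95-fold without plasma control pool 4, which stood far above the other 3 pools. Then came miR-7a* at -2.76, miR-140* at -2.67 and miR-322* at -2.27. Relative to the median of all tested miRNAs, let-7d* was at -4.15, miR-30c-1* at -3.75, miR-296* at -3.15, miR-7a* at -2.36, miR-140* at -2.28 and miR-322* at -1.88. Of these 6, all were below 0 under every scaling, but none passed without scaling, where 2 star strands passed in all. With normexp miR-7a*, miR-30c-1* and miR-296* did not pass either, nor did miR-322* with the total signal (-1.25) or miR-7a* in the authors' processed values (-0.32).

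Highest in kidney were miR-29c* at 2.69 (SE 0.45) and miR-378*, from an intron of Ppargc1b, at 2.03 (SE 0.52). MiR-30a* at 0.74 and miR-30e* at 0.59 followed, and all 4 passed but turned below 0 with normexp background correction. Relative to the median of all tested miRNAs they were at 3.08, 2.43, 1.14 and 0.98, and above it in each of the 17 alternative settings. MiR-29c*, miR-378* and miR-30a* passed the detection filter only through kidney, where they were on every array, with detection in 2, 3 and 3 of 4 plasma control pools. MiR-29c* was at 5.44, 5.92, 5.60 and -18.3 in plasma control pools on the common scale, detected in 2 of them, and at 24.8, 25.0, 26.4 and 27.2 in kidney. MiR-29a*, from a hairpin with a closely related guide, had a difference of -1.18 with normal scaling but above 0 in the authors' processed values, with quantile normalization and without scaling. MiR-151*, miR-24-2* and miR-30c-2* also turned sign between settings. Star and guide had differences of the same sign in 7 of 14 pairs, among them both miR-140 strands, at -2.67 and -1.55, and both miR-24 strands, at -1.28 and -1.29.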

How the data were processed

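Each of the 16 arrays was an Agilent 1-colour rat miRNA array with 7000 spots and 938 probes. Per the file headers, the spot intensity was extracted by the authors with Feature Extraction 10.7.3.1, whose background-corrected processed signal, raw median signal and background, total signal and detection call per miRNA were used. A table of log2 values deposited by the authors served as an alternative; its exact normalization is not given in the sources used here.

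Signals were averaged over unflagged spots of a probe, then over probes. Arrays were scaled to the 75th percentile of miRNAs detected on all arrays of a fit (163 in kidney, 74 in plasma, 66 between tissues), and values below a floor, the median of the arrays' lowest detected signals (1.79, 0.976 and 1.42), were set to it. A floor understates differences of dim miRNAs. A miRNA seen in every pool of either group was tested with limma 3.58.1 in R 4.3.3, two-sided, adjusted over all tested, at a threshold of 0.05. The test was tried on simulated data. For a miRNA undetected throughout a group the fold is a bound, which sets each undetected value to its array's lowest detected signal where that is higher. A star minus guide difference used pools with both detected, at least 3 per group. Pools without overlap are a description. No array was saturated and no replicate files were identical.

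Named are star strands that passed (up to 10 in each direction), the 6 smallest p per tissue, those on all 16 arrays, those on all pools of 1 group and none of the other, and their guides; others appear by detection or range. Members and lists were chosen with earlier results of these data known. In plasma, same-numbered pools deviated together (correlations 0.22, 0.49, 0.62 and 0.60). They came from different rats, were neighbours on the slide, and no label states that the numbers pair them. Comparisons within same-numbered plasma pools are therefore a description, and the source of the shared deviation was not tested. Alternatives were background correction (normexp, offset 50), quantile normalization, the percentile over all miRNAs, no scaling, detection on at least 1 array, total signal, the authors' values, slide row and replicate number as blocks, 1 fit of 16 arrays, and leaving out pools. Differences within same-numbered plasma pools and the bound without single pools were added after seeing the data. The 11 alternatives for star minus guide were normexp, total signal, the authors' values and leaving out each of 8 control pools. The pools are separate rats within a tissue, and their number limits the precision. With 24 rats in all, plasma and kidney pools drew on the same animals. Which pools share rats is not stated, and the fits across tissues treated all arrays as independent.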

Additional observations from a re-analysis of the deposited data

Results flagged for a closer look

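In plasma control pools miR-296* had a scaled signal of 49.3 in pool 4 and 5.21 to 7.29 in the other 3, a gap that is large for a group of 4. Pool 4 is the array with the fewest detected miRNAs (84) and a scaled detection limit of 20.9. In this way 50 groups of 4 were examined, and chance marks about 1 in 20.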

How the results depend on the processing

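The count of 0 star strands past the threshold held under all alternatives in kidney, in plasma and for the interaction, including the replicate block, which gave 0 in both tissues; in kidney the numbers share only a number (correlations 0.20, 0.59, -0.10 and 0.15). Between tissues 14 passed; 3 did with normexp, 2 without scaling, 26 with detection on at least 1 array and 8 with the total signal. Leaving out single pools gave 13 to 19. Of the 13 pairs, those with the star higher in kidney without overlap were 0, 2 in the authors' values, and 0 to 2 without single pools. Kidney values turned to -0.027 for miR-7a* (quantile normalization) and 0.0011 for let-7d* (normexp).

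In plasma miR-30a* turned to 0.66 (normexp), 0.84 (total signal) and 0.11 (without pool 4), let-7d* to 0.43 (normexp), miR-296* to -0.60 (total signal), miR-30e* to 0.64 (normexp) and 0.18 (without pool 4), and miR-30c-1* to -0.29 (quantile normalization), -0.11 (percentile over all miRNAs), -0.65 (total signal) and -1.07 (authors' values). Without single pools miR-30c-1* ranged from -0.32 to 0.46 and miR-30e* from -0.18 to 0.11.

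Between tissues the turned values were, with normexp, -0.81 for miR-29c*, -0.19 for miR-30a*, -0.26 for miR-30e* and -0.71 for miR-378*. With quantile normalization they were 0.33 for miR-151*, 0.10 for miR-24-2*, 0.53 for miR-29a* and 0.59 for miR-30c-2*. Without scaling they were 0.42 for miR-24-2*, 0.50 for miR-29a* and 1.15 for miR-30c-2*. In the authors' values they were 0.90 for miR-151*, 0.66 for miR-24-2*, 1.27 for miR-29a* and 0.50 for miR-30c-2*. MiR-30c-2* was at 0.53 with the total signal and 0.0037 without pool 4, and -0.91 to 0.0037 without single pools. The causes were not tested.

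Dim star strands limit these results: 17 of 56 were tested in kidney and 6 in plasma, and signals near the floor understate a difference.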
